A study of Homo sapiens with 16 samples.

Results

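Chromatin immunoprecipitation followed by sequencing (ChIP-seq) of HDGF in glucose-starved cells was set against HDGF ChIP-seq in control cells. The comparison uses 4 of the 16 samples of the series and 2 of its 5 peak lists: every unique interval on chromosomes 1 to 22, X and Y in the 2 HDGF lists was taken, which gave 106674 peaks in control and 68138 peaks in starvation. The series asked whether INTS13, a subunit of the Integrator complex, is redistributed over chromatin under starvation, or upon relocation or depletion of a transcription factor, and HDGF was mapped for that reason. Both groups are HEK293T, an established human embryonic kidney cell line, labelled wild type, with 2 labelled replicates each. The starved cells spent 24 h in medium without glucose. The control cells carried a control depletion, for which the labels give no duration. The labels name no such depletion for the starved cells, so starvation and the missing control depletion cannot be told apart. Both groups were fixed with formaldehyde at 1% and precipitated with the same HDGF antibody from Proteintech, per the labels.

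HDGF, hepatoma-derived growth factor, is the founding member of a family of chromatin proteins that carry a PWWP domain, a fold that binds DNA and methylated histone tails. Its relatives PSIP1 and HDGFL2 are known as readers of histone H3 methylated at lysine 36, a mark laid down over the bodies of transcribed genes. HDGF was first described as a secreted mitogen, and it has also been described as a repressor of the muscle methyltransferase gene SMYD1. A ChIP-seq peak is an interval with more reads than the background, and its summit is the base with the most.

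Each group has 1 deposited peak list, so no value here has a replicate error and no test between the conditions was possible. Percentages carry 95% intervals by the exact method of Clopper and Pearson; these reflect the error of counting alone. The lists differ in length and in background. The fold enrichment over background ran from 2.21 to 52.2 in control (median 2.86) and from 2.27 to 35.9 in starvation (median 2.90), in steps of 0.130 and 0.0896, the worth of 1 read at a summit, and the read totals of the libraries were not used here. Median peak widths were 338 and 355 bp. Most peaks were weak: 683 control and 548 starvation peaks had a −log10 q of at least 10.

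The position of HDGF relative to gene starts differed between the lists. In control cells HDGF flanked the starts of protein-coding genes and was nearly missing from the starts themselves, and in starved cells that gap was filled. Among 15842 genes with a known strand (the outermost start in the RefSeq promoter table was used for each), a control peak covered the start at 145 genes, or 0.915% (interval 0.773 to 1.08). A starvation peak covered it at 581 genes, or 3.67% (3.38 to 3.97). The starvation list, the shorter of the 2, thus covered more starts.

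On either side of the start the order was the opposite. At 1200 bp upstream the control list covered 5.86% of genes and the starvation list 3.43%. At 2100 bp into the gene the control list reached its maximum of 9.25% (8.80 to 9.71, 1465 genes), against 4.84% in starvation. The starvation list had its own maximum of 5.43% (5.09 to 5.80) at 900 bp into the gene, where the control list stood at 4.49%. At 10 kb upstream the lists were at 3.07% and 2.97%.

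**Figure D1:**
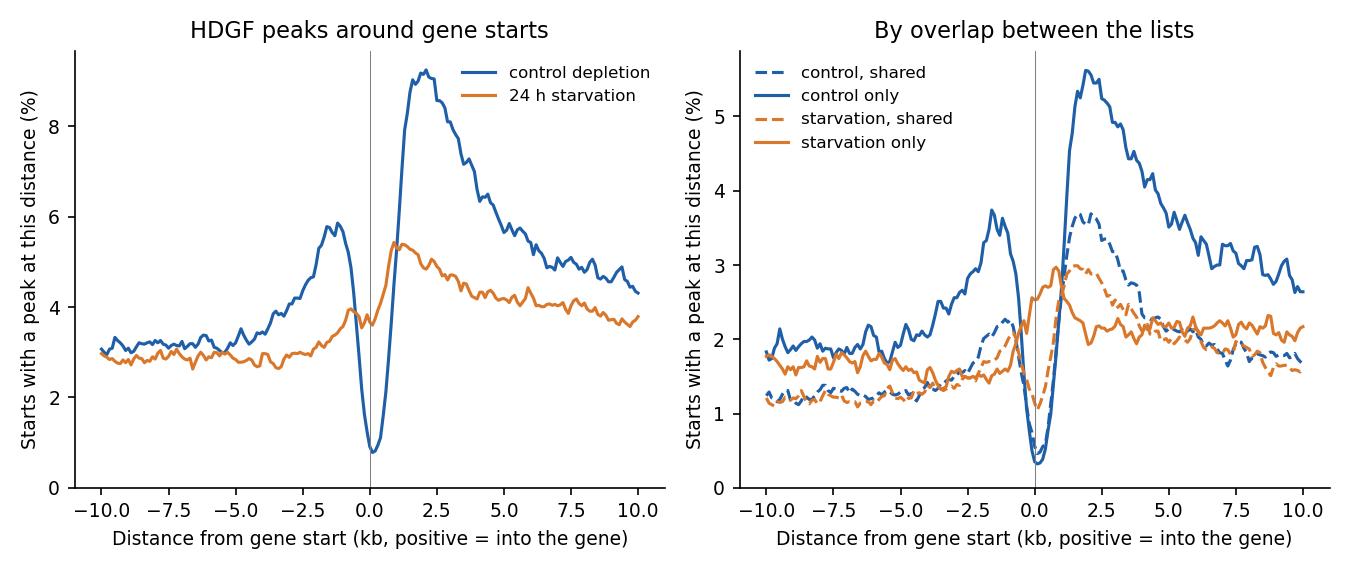
Share of 15842 protein-coding gene starts covered by an HDGF peak (y axis, %) against the distance from the start (x axis, kb, positive into the gene), for all peaks on the left and for peaks that do or do not overlap the other list on the right. The control line drops to 0.915% at the start between shoulders of 5.86% and 9.25%, while the starvation line stays at 3.67% there.

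The gap at the start was present in shared and unshared control peaks and, less deep, in shared starvation peaks, while peaks found in starvation alone showed none. Starvation peaks with no overlapping control peak covered 2.53% of starts (2.29 to 2.79), and those with one covered 1.14% (0.977 to 1.31), between shoulders of 2.09% at 800 bp upstream and 2.99% at 1500 bp into the gene. Control peaks without an overlapping starvation peak covered 0.353% of starts. On the downstream shoulder, 2100 bp into the gene, control-only peaks covered 5.56% of genes and shared control peaks 3.69%.

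The same was seen in summits, here with every start in the promoter table counted. Of the summits that lay within 3 kb of a start, 754 of 10514 control summits were within 500 bp of it (7.17%, 6.69 to 7.68) and 1536 of 7769 starvation summits (19.8%, 18.9 to 20.7). An even spread over the 3 kb on each side would give 16.7%. The share from 1 to 3 kb into the gene was 51.4% in control and 38.5% in starvation. On all 22 chromosomes with at least 50 such summits in each list the share within 500 bp was higher in starvation, with a range of 3.33 to 9.48% in control and 13.6 to 31.7% in starvation.

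Overlapping peaks lay at like distances in both lists, which their overlap largely fixes. At 3486 pairs of overlapping peaks near the same start, the starvation summit was the nearer one in 1789 and the control summit in 1695 (2 were equal), and the median distances were 1632 bp in control and 1639 bp in starvation. The start peaks were not stronger than others: the median fold within 500 bp of a start was 2.86 in control and 2.90 in starvation, as it was beyond 3 kb. Of the starvation peaks within 500 bp of a start, 21.4% (19.3 to 23.5) overlapped a control peak, against 41.3% (39.9 to 42.8) of those at 1 to 3 kb.

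Counted by gene, 458 genes had a control summit within 500 bp of the start (2.89%), 1186 had a starvation summit there (7.49%), and 169 had both. From 1 to 3 kb into the gene the numbers were 3862 genes (24.4%) in control and 2271 (14.3%) in starvation. Of the 1017 genes with a summit within 500 bp in starvation only, 446 (43.9%, 40.8 to 47.0) had a control summit on the downstream flank. Nearly as many, 445 (43.8%, 40.7 to 46.9), had a starvation summit there. Of the 289 genes with a summit within 500 bp in control only, 105 (36.3%, 30.8 to 42.2) had a starvation summit on that flank.

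The clearest cases are starts that lie inside a peak of one list with no base of the other list within 1 kb. There were 262 such starts in starvation and 41 in control. The 250 bases before the start are shown for the 3 cases of each list with the strongest peaks, since they show how the base composition of these promoters differs. They come from RefSeq, build GRCh38.p14, and were chosen after the values had been seen. They are written 5′ to 3′ on the strand of the gene, and capitals mark GC boxes, the GGGCGG element that transcription factors of the Sp family bind, or its complement CCGCCC.
KLF12 (control, chr13:74306046-74306295, minus strand): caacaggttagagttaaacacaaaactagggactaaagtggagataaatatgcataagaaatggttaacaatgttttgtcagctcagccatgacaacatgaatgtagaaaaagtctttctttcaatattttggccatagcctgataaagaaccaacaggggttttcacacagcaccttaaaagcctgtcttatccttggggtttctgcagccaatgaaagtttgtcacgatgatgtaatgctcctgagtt
SENP8 (control, chr15:72114008-72114257, plus strand): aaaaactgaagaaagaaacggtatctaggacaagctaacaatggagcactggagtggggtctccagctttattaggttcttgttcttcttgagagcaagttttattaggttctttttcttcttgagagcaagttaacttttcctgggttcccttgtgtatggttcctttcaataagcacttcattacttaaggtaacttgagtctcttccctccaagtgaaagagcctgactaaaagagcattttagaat
KLF5 (control, chr13:73054726-73054975, plus strand): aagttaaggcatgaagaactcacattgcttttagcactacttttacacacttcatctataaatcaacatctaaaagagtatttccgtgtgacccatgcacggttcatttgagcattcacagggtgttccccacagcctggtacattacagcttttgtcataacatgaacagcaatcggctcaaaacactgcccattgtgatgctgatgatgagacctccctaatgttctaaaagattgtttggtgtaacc
TMEM61 (starvation, chr1:54980378-54980627, plus strand): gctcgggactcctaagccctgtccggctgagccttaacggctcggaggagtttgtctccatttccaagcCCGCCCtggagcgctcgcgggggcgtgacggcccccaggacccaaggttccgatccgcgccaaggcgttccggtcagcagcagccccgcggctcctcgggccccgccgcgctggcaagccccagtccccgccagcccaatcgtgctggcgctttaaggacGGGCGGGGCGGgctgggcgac
BGLAP (starvation, chr1:156241934-156242183, plus strand): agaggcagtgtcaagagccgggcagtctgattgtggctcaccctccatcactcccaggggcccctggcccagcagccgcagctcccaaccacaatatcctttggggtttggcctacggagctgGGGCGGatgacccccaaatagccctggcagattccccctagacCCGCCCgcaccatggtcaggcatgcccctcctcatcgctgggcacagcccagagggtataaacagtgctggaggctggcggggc
LOC124901780 (starvation, chr7:151436162-151436411, minus strand): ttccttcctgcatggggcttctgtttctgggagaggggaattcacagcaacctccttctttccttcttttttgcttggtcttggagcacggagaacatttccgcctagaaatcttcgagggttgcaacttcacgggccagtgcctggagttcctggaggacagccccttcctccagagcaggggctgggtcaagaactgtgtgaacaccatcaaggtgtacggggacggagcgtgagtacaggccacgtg

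The 3 control promoters are rich in A and T, and the starvation promoters hold more G and C, though not all of them hold a GC box. KLF12 and KLF5 encode zinc finger transcription factors and SENP8 a protease that removes the ubiquitin-like protein NEDD8. Their 250 bases had 38.4, 40.8 and 38.8% GC, with 1, 3 and 1 CpG dinucleotides and 0 GC boxes. TMEM61 encodes a transmembrane protein and BGLAP osteocalcin, a bone matrix protein. They had 72.0 and 64.4% GC, 28 and 8 CpG and 3 and 2 GC boxes, those of TMEM61 including an overlapping pair. LOC124901780 had 55.2% GC, which is below the median of all promoters, with 8 CpG and 0 GC boxes.

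At SENP8 the control peak from 72112648 to 72114700 (fold 3.77, summit 442 bp upstream) spanned the start, and the starvation list had no base within 3 kb. At KLF5 the spanning control peak had fold 3.38 with its summit 99 bp into the gene, and the nearest starvation summit lay 2991 bp in. At TMEM61 the spanning starvation peak, from 54980418 to 54982664, had fold 4.33 and its summit 310 bp into the gene. The nearest control summit there lay 1187 bp upstream (fold 2.73). At BGLAP the spanning starvation peak had fold 4.06 and its summit 407 bp upstream, and the only control peak within 3 kb lay 2137 bp upstream (fold 2.73). At LOC124901780 the spanning starvation peak had fold 3.97 and its summit 170 bp into the gene.

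Over all of these starts the control and starvation groups also differed in base composition. Median promoter GC (300 bases, from 250 before to 50 after the start) was 48.7% at the 41 control starts and 64.8% at the 262 starvation starts, against 62.7% over all 15842 promoters. A GC box on either strand was present in 29.3% and 54.2% of them, against 58.3% of all promoters, and the median number of CpG was 5 and 15, against 22. The starvation starts were thus slightly above all promoters in GC and below them in GC boxes and CpG.

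Grouped by summits within 500 bp instead, promoters of the 289 genes with control HDGF only had a median GC of 56.0% and 12 CpG, those of the 169 genes with both 61.0% and 13 CpG, and those of the 1017 genes with starvation HDGF only 65.3% and 23 CpG. GGGCGG, searched on both strands, was found in 41.5% (35.8 to 47.4), 53.8% (46.0 to 61.5) and 65.9% (62.9 to 68.8) of these 3 groups and in 58.3% of all promoters. TATAAA, the core of the TATA box, was found in 10.0, 7.10 and 5.70% (9.75% of all). CCAAT, the site of the NF-Y factor, was found in 36.7, 33.1 and 29.3% (36.4% of all). CACGTG, the E-box that MYC and MLXIP families bind, hardly varied, at 9.34, 10.1 and 9.83% (8.82% of all). These letters are descriptions of the windows and not binding sites.

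The gap in the control list deepened with promoter GC. With promoters divided at 56.7 and 67.3% GC, the share of control summits that lay within 500 bp, of those within 3 kb, was 14.0% (12.7 to 15.3) at low GC, 6.10% (5.41 to 6.86) at middle GC and 2.31% (1.91 to 2.78) at high GC. In starvation the shares were 19.4% (17.4 to 21.4), 21.4% (20.1 to 22.8) and 14.6% (13.5 to 15.7). The starvation share was thus above the control share in each class, by the most at middle and high GC. Whether the inputs or GC content were corrected for in peak calling is not given in the sources used here. The starved libraries also placed more of their peaks in GC-rich regions (given with the chromosomes), and INTS13 showed a move in the same direction in starved cells. The part of these in the start pattern was not tested.

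**Figure D2:**
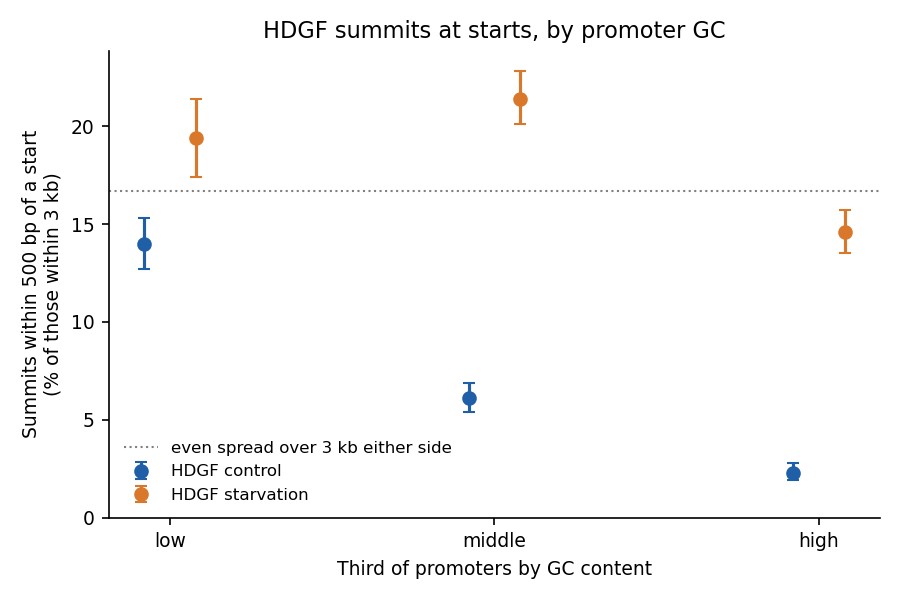
Share of HDGF summits within 500 bp of a gene start among those within 3 kb (y axis, %) for promoters of low, middle and high GC (x axis), with exact 95% intervals that cover counting error only, and the 16.7% of an even spread as a dotted line. Control falls from 14.0 to 2.31% with rising GC, and starvation lies above it in each class.

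Inside genes HDGF lay more in the 5′ part in control and more in the 3′ part in starvation. In 11572 genes of 10 kb or more, divided into 10 equal parts, the first part held 13.7% (13.5 to 14.0) of the control summits inside these genes and 10.5% (10.2 to 10.9) of the starvation summits. The last part held 9.63% (9.40 to 9.86) and 14.9% (14.6 to 15.3). Among peaks of one list alone the contrast was wider, with 14.1% of control-only summits in the first part and 16.5% (16 to 16.9) of starvation-only summits in the last. Shared peaks were nearly alike in the last part, at 12.7% of shared control and 12.1% of shared starvation summits. The rise in the last part was not particular to HDGF. INTS13 summits, from lists that also differ in antibody, were there at 10.8% in control and 14.5% in starvation. In the first part INTS13 went the other way from HDGF, from 11.1 to 14.9%.

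The higher starvation coverage toward the 3′ end dipped at the annotated end itself. At 1000 bp before the end, starvation peaks covered 6.40% (6.02 to 6.79) of genes and control peaks 4.53% (4.21 to 4.86). At the end itself the order turned, with 4.20% (3.90 to 4.53) in starvation and 4.75% (4.43 to 5.10) in control. At 1000 bp past the end they were at 4.95 and 3.75%.

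**Figure D3:**
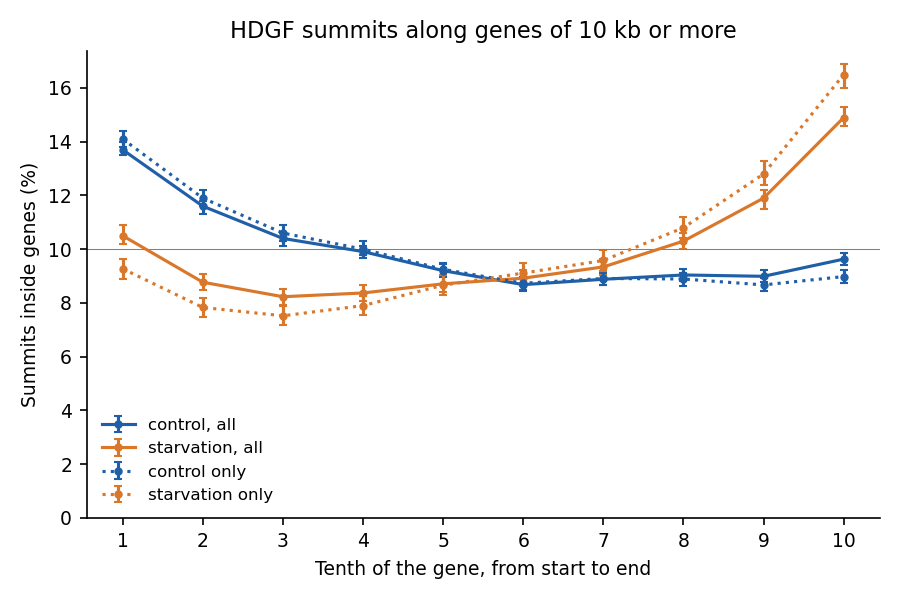
Share of HDGF summits inside genes of 10 kb or more (y axis, %) in each of 10 equal parts from start to end (x axis), for all peaks (solid) and for peaks of one list alone (dotted), with exact 95% intervals that cover counting error only. Control is highest in the first part (13.7%) and starvation in the last (14.9%).

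By place, 67.7% of control summits lay inside protein-coding genes away from their starts and 59.9% of starvation summits did. Within 1 kb of a start were 3.08% (2.98 to 3.18) of control and 6.21% (6.03 to 6.39) of starvation summits. Other genes held 7.74 and 8.85%, and 21.5 and 25% lay outside annotated genes. For the 4195 protein-coding genes without a strand in the promoter table, either end of the gene counted as a start here and in the counts of genes.

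HDGF intervals were mostly not the same in the 2 conditions, and the share that overlapped grew with strength and width. Of the control peaks 22387, or 21.0% (20.7 to 21.2), shared at least 1 base with a starvation peak, and of the starvation peaks 23780, or 34.9% (34.5 to 35.3), shared one with a control peak. Common bases came to 10.9 Mb, which is 20.4% of the 53.4 Mb covered in control and 31.5% of the 34.6 Mb covered in starvation. In 10 classes of strength, the shared share went from 55.2% in the strongest control class to 9.77% in the weakest, and from 67.3 to 20.8% in starvation. The strongest classes were also the widest, with median widths of 841 bp in control and 898 bp in starvation, against 289 bp in both weakest classes. A wide interval shares 1 base more easily, so strength and width are not separated here. Of the 1000 strongest peaks 86.3% of control and 90.2% of starvation peaks were shared. Of peaks of 2000 bp and over 89.6% (1874 of 2091) and 89.7% (1083 of 1207) were shared, against 11.3 and 24.3% of those under 300 bp. Within shared pairs the summits were a median of 321 bp apart, and 19.5% of pairs had summits within 100 bp of each other.

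The strongest shared intervals lay far from genes. The first 5, on chromosomes 16 (2 intervals), 3, 1 and 17, had control folds of 45.8 to 52.2 and starvation folds of 35.1 to 35.9, and the nearest annotated genes, all pseudogenes, were 70415 bp to 3608336 bp away. The strongest interval found in control only ranked 101 (chromosome 18, 16265880 to 16266168, fold 7.68) and the strongest found in starvation only ranked 85 (chromosome 5, 49600365 to 49600759, fold 8.0). Thus the 84 strongest starvation and the 100 strongest control peaks were all shared. The sequence of the peaks was not read. Whether these top-ranked intervals lie in repeats that collect reads in any library was not tested.

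The widest intervals broke into shorter ones in starvation. On chromosome 9, 3 adjacent control intervals between 79573703 and 79733130, of 52225, 52943 and 53866 bp, covered TLE4, which encodes a Groucho family corepressor. Starvation peaks, 17, 19 and 15 of them, covered 86.8, 87.2 and 89.5% of these. On chromosome 13 a control interval of 53155 bp without any annotated gene (61886284 to 61939438) was covered to 91.9% by 8 starvation peaks. The control interval with the most starvation peaks, 29, was 39717 bp wide over PCDH9, a protocadherin gene, and they covered 46.0% of it.

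Both lists were concentrated on a few chromosomes, and their shares differed between the lists. Chromosome 1 held 28.1% of control and 26.7% of starvation peaks with 10.3% of the protein-coding genes, and chromosome 13 held 10.8 and 8.99% with 1.69% of the genes. Chromosome 19, the densest in genes, went from 1.75 to 4.30% of the list, chromosome 22 from 5.25 to 7.77% and chromosome 16 from 2.04 to 3.46%. Chromosome 6 went from 6.73 to 3.28% and chromosome 2 from 2.33 to 1.56%. The concentration on chromosome 1 was not particular to HDGF. INTS13 lists, which also differ in antibody, held 41.1% of control and 35.2% of starvation peaks there. In these lists chromosomes 19, 22 and 16 rose too, from 0.826 to 1.41%, 3.22 to 7.08% and 1.53 to 2.22%. Chromosome 2 went the other way from HDGF, from 0.247 to 0.505%, and chromosome 6 stood at 1.69 and 1.66%. The source of the common part was not tested.

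**Figure D4:**
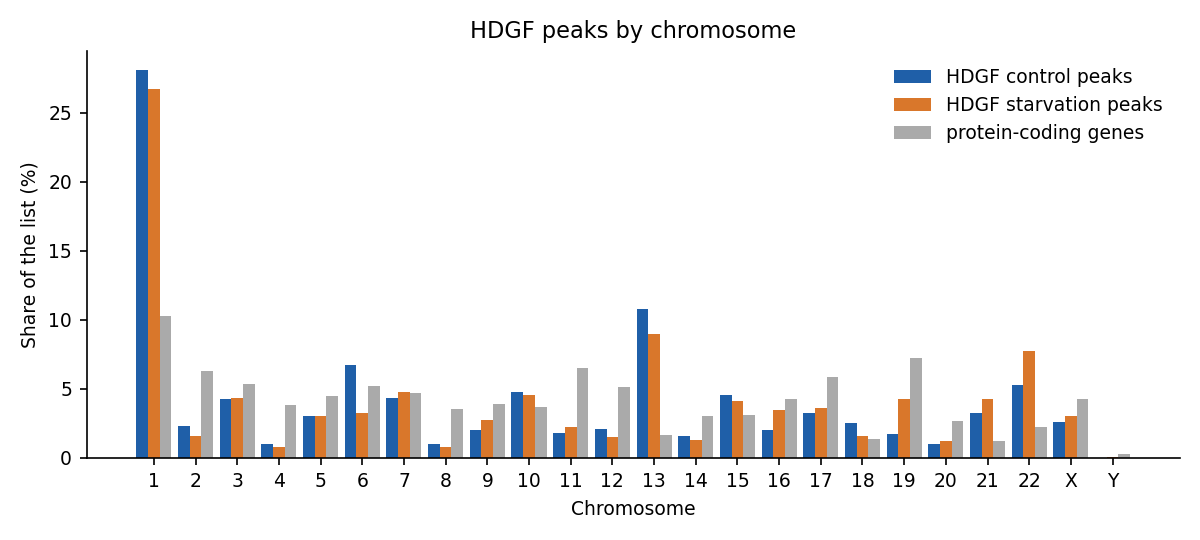
Share of each HDGF list, and of protein-coding genes, on each chromosome (y axis, %; x axis, chromosome). Chromosome 1 holds 28.1% of control and 26.7% of starvation peaks, and chromosome 19 goes from 1.75 to 4.30%.

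Retention also varied by chromosome. The share of control peaks found again ranged from 2.33% on chromosome 2 to 33.4% on chromosome 16, and that of starvation peaks from 5.37% on chromosome 2 to 75.4% on chromosome 13, the Y chromosome with its 1 control peak aside. Across 23 chromosomes the shared share rose with peaks per gene, with a Spearman correlation of 0.537 in control and 0.881 in starvation. The chromosomes share the same libraries, so this is a description.

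At a finer scale the bins of 5 Mb kept their ranking (Spearman correlation 0.853 over 569 bins, a description of the same libraries), and 48 bins held the first 50% of control peaks against 38 in starvation. The 5 bins that gained most, relative to the length of the lists, were all at chromosome ends. They included chromosome 10 from 130000001 to 135000000 (81 control and 406 starvation peaks), chromosome 9 from 135000001 to 140000000 (106 and 491) and the first 5 Mb of chromosome 1 (124 and 470). Bins that emptied included chromosome 14 from 30000001 to 35000000 (115 and 3) and chromosome 2 from 200000001 to 205000000 (109 and 3). Bins in the class of high promoter GC held 28.1% of control and 39.4% of starvation peaks, and those of low promoter GC 29.7 and 20.1%. Over 335 bins the ratio of the starvation to the control share had a Spearman correlation of 0.373 with promoter GC and of 0.428 with the number of promoters, and over 22 chromosomes it was 0.242 with promoter GC. Chromosome 19, at 2.46 times its control share, had a median promoter GC of 63.0%. The bins and chromosomes share the same libraries, so these are descriptions.

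Genes were classed by whether a summit lay within 1 kb of a start: kept in both lists, lost in the control list only, and gained in the starvation list only. These words describe the lists. Distances at named genes are from 1 of the gene's starts in the promoter table, which may be internal and may differ between the lists. Without a strand they are from 1 end of the gene, and the side is unknown. Of 20037 protein-coding genes, 2655 (13.3%) had HDGF at the start in control and 3249 (16.2%) in starvation. Kept were 1263 genes (6.30% of all), lost 1392 (6.95%) and gained 1986 (9.91%). The kept genes were 47.6% (45.7 to 49.5) of the control genes and 38.9% of the starvation genes, and at 776 of them (61.4%) the peaks themselves overlapped. Of the lost genes 965 (69.3%) had no starvation peak base within 2500 bp, and of the gained genes 1038 (52.3%) had no control peak base within 2500 bp.

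Among kept genes with overlapping peaks the strongest in control were RBM34 (fold 5.73 in control, 2.81 in starvation), C1orf35 (5.6 and 5.85), H3-3A (5.46 and 5.04), LIN9 (5.33 and 4.60), CNIH4 (5.2 and 4.15), POLGARF (5.07 and 4.33), MVP (5.07 and 3.88) and GGPS1 (4.81 and 3.70). H3-3A encodes the replacement histone H3.3, LIN9 a subunit of the MuvB cell cycle complex, MVP the major vault protein and GGPS1 a synthase of isoprenoids. Folds of different lists have different backgrounds, so they are set side by side only. At H3-3A the control interval, 226055972 to 226061835, ended 4 bp past the start at 226061831. The starvation interval, 226059938 to 226062407, ran across it, with its summit 32 bp into the gene.

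The lost genes with the strongest control peaks and no starvation peak within 2500 bp were EIF4EBP2 (fold 4.29), MUTYH and TOE1, which share a peak, MTF2, RPL23A and RTN4 (3.90 each), and DIXDC1 and ACAD8 (3.77 each). EIF4EBP2 encodes a repressor of cap-dependent translation that mTORC1 inactivates, MUTYH a DNA glycosylase and MTF2 a Polycomb accessory protein that reads methylated H3 lysine 36. RPL23A, a ribosomal protein gene, has many processed copies in the genome and its peak is uncertain. The gained genes with the strongest starvation peaks and no control peak within 2500 bp were LOC124904970 (4.33), RAB40B, PSG11, DRC11L and RHPN1 (4.06 each), and P2RX6 and SLC7A4, which share a peak, and LOC124901780 (3.97 each). PSG11 belongs to a family of close copies and is uncertain too. LOC124904970, PSG11, RHPN1, P2RX6, SLC7A4 and the lost gene RPL23A have no strand in the promoter table, nor has C1orf35 among the kept genes. Either end counted for them, so these peaks may lie at the end of the gene and not at its start.

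With the wider window of 2500 bp and any base of a peak counted, a choice made after the flanking pattern had been seen, 6696 of 20037 genes (33.4%) had HDGF in control and 5140 (25.7%) in starvation. Kept were 3381 (16.9%), lost 3315 (16.5%) and gained 1759 (8.78%). The control count was the higher one in this window, but not in lists of equal length, where it was 4973 genes (24.8%) against 5140. Genes of the cell's basic machinery and metabolism lay far above the share of all genes in control and nearer to it in starvation. In the 12 lists other than tissue markers together, control HDGF was at 252 of 417 genes (60.4%, 55.6 to 65.2) and starvation HDGF at 134 (32.1%, 27.7 to 36.9), with 111 kept, 141 lost and 23 gained. Marker genes of liver, blood, muscle and the nervous system, which a kidney line is not known to use, were at 9 of 67 in control (13.4%, 6.33 to 24.0) and 15 of 67 in starvation (22.4%, 13.1 to 34.2). With the control list cut to the 68138 strongest peaks, the length of the starvation list, control HDGF was at 196 of the 417 genes (47.0%, 42.1 to 51.9) and at 5 of the 67 marker genes. The lists below are to be read beside all genes, where 3315 of 6696 control genes were lost in this window. A lost count near that part, such as 9 of 19 in the Polycomb list, is no result about the list. Within 1 kb the shares of all genes were 13.3% in control and 16.2% in starvation.

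**Figure D5:**
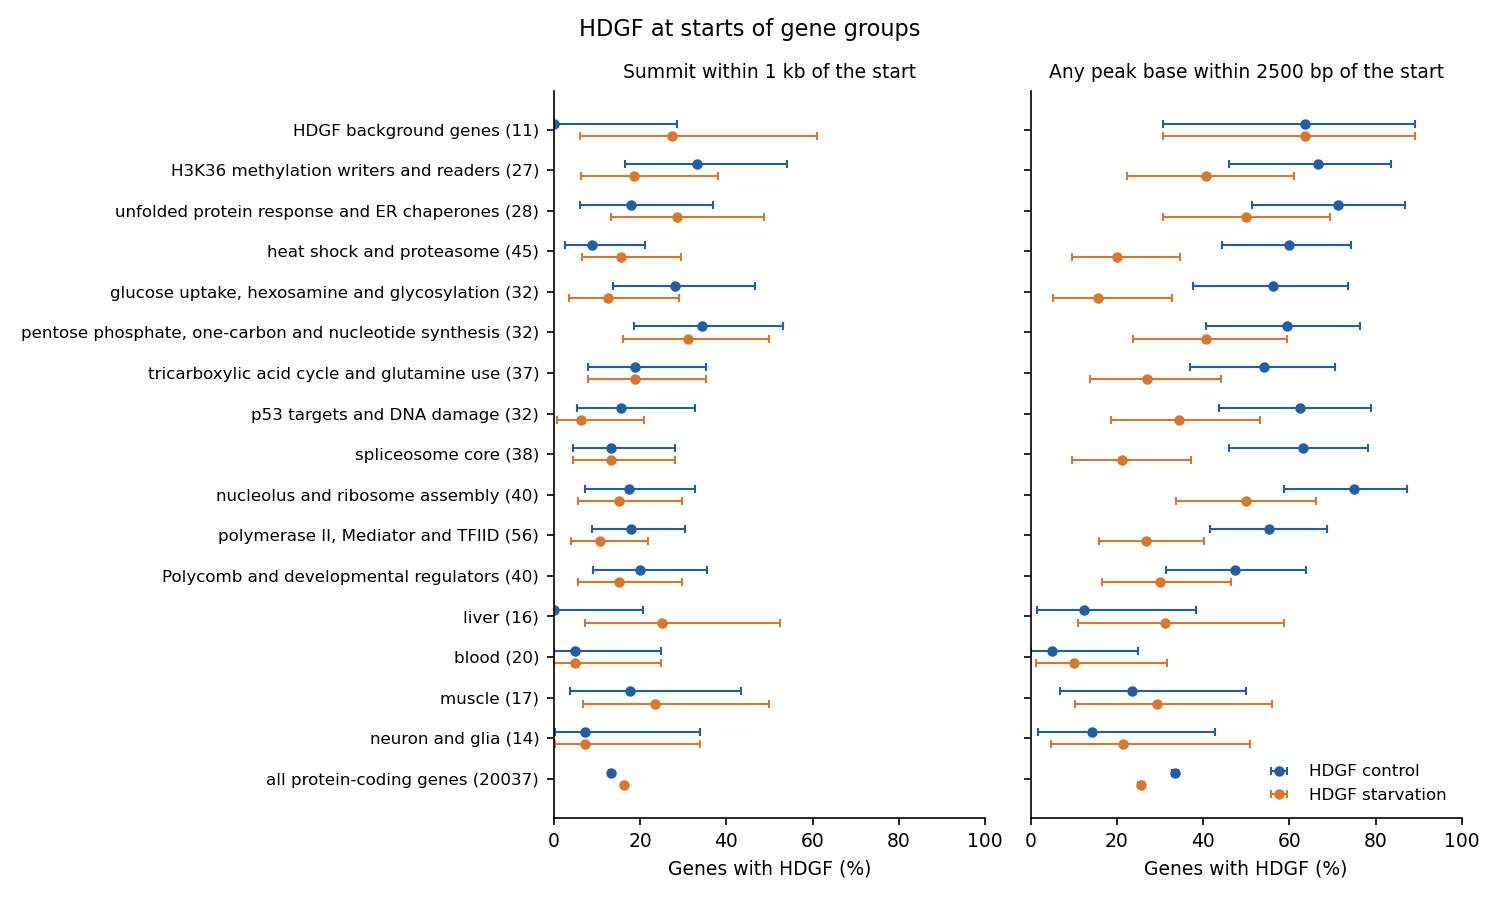
Share of the genes of each list with HDGF (x axis, %; number of genes in brackets), by a summit within 1 kb of the start on the left and by any peak base within 2500 bp on the right, with exact 95% intervals that cover counting error only. On the right the control share is 60.0% for heat shock and proteasome genes, 63.2% for the spliceosome and 33.4% for all genes, and the starvation shares are 20.0, 21.1 and 25.7%.

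The proteasome and heat shock list, which serves protein degradation and folding, was at 27 of 45 in control and 9 of 45 in starvation within 2500 bp (60.0%, 44.3 to 74.3, and 20.0%, 9.58 to 34.6), with 8 kept, 19 lost and 1 gained. With lists of equal length control was at 20. Lost were PSMA5 (control fold 3.90, summit 1148 bp into the gene) and PSMB1 (3.51), subunits of the proteasome core, PSMD8 (3.25) of its regulatory cap, and the chaperone genes DNAJB1 (3.38, 1420 bp in) and HSPA8 (3.12, 3158 bp in). HSP90AB1, an HSP90 gene, was kept, with the control summit 1825 bp past an internal start (3.51). The starvation summit lay 388 bp upstream of a start (2.90). Within 1 kb of the start, where the control list has its gap, the same list was at 4 in control and 7 in starvation.

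Core spliceosome genes were at 24 of 38 in control and 8 of 38 in starvation within 2500 bp, with 7 kept, 17 lost and 1 gained (18 in control at equal length). The lost genes included PRPF3 (3.77, 2656 bp in), EFTUD2 (3.25, 1788 bp in), a GTPase of the U5 particle, the U2 factor gene U2AF2 (3.25, 2313 bp in) and the Sm protein genes SNRPB (3.25, 1969 bp in) and SNRPD1 (3.12, 1832 bp in). SNRPD3 was kept (3.77 and 3.61), and PRPF6 was gained (2.63). Within 1 kb the list was at 5 in both (13.2% each, against 13.3 and 16.2% of all genes), and 0 of these were the same genes. Over all genes 47.6% of control and 38.9% of starvation genes were kept, and 5 genes are too few to set against that.

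Genes of glucose uptake, the hexosamine pathway and protein glycosylation, the pathways that use the withdrawn sugar directly, were at 18 of 32 in control and 5 of 32 in starvation within 2500 bp, with 4 kept, 14 lost and 1 gained (11 in control at equal length). The shares of all genes in that window were 33.4 and 25.7%. Within 1 kb the genes of this list were at 9 and 4 (28.1 and 12.5%, against 13.3 and 16.2% of all genes). TXNIP, a glucose-induced inhibitor of glucose uptake, had a control peak of fold 3.77 with its summit 2194 bp past an internal start. Another of 3.25 had its summit 512 bp past an internal start, and no starvation peak base lay within 2500 bp. MLXIP, which encodes a glucose-sensing transcription factor that drives TXNIP, was lost too (3.12, 1986 bp in). UAP1 (3.38) and PGM3 (3.12), which make UDP-N-acetylglucosamine, and DPAGT1 (3.25) and ALG8 (2.99), which build the lipid-linked sugar for N-glycosylation, were lost. HK1 was kept (3.38 and 2.90), as were ALG6 (3.77 and 3.07), MPI and RPN1. OGA, the enzyme that removes O-linked N-acetylglucosamine from proteins, was gained (3.07, 660 bp upstream).

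Genes of the unfolded protein response, which failed glycosylation under glucose withdrawal is known to set off, had HDGF within 2500 bp at 20 of 28 in control and 14 of 28 in starvation, with 12 kept, 8 lost and 2 gained (16 in control at equal length). The transcription factor genes ATF4 and XBP1 were kept. For ATF4 the control summit was 2309 bp downstream of a start (4.03) and the strongest starvation summit 576 bp downstream (3.34). For XBP1 the strongest control summit was 856 bp upstream of the outer start (3.90). The starvation summit was inside the gene, 203 bp upstream of an internal start (3.52). CANX, CALR, SDF2L1 and PPP1R15B were kept, with the strongest starvation summit farther from the start at SDF2L1 (1087 bp in control, 1770 bp in starvation) and PPP1R15B (1100 and 1395 bp). Over the 12 kept genes of the list it was nearer at 7 and farther at 5, and over the 111 kept genes of the 12 lists nearer at 66 and farther at 45, a count made after the values had been seen. The chaperone genes HSPA5 (2.99, 2718 bp in) and HSP90B1 (2.99, 2193 bp in) and PDIA6, HERPUD1, EDEM1 and DNAJC3 were lost. TRIB3 (2.98) and ERN1 (2.36), the sensor that splices XBP1 RNA, were gained. Within 1 kb the list was at 5 in control and 8 in starvation, where DDIT3, which encodes the stress factor CHOP, was kept with summits 859 and 847 bp into the gene (2.73 and 3.25).

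Pentose phosphate, one-carbon and nucleotide genes were at 19 and 13 of 32 within 2500 bp, with 11 kept, 8 lost and 2 gained, and at 11 and 10 within 1 kb. ADSS2, of AMP synthesis, was kept (4.55 in control, 4.87 in starvation). PHGDH, the first enzyme of serine synthesis, was kept (4.16 and 2.72), as were IMPDH2 (3.90 and 3.61) and SHMT2 (3.38 and 3.88). MTHFD2 (3.25), PSAT1 (3.12), CTPS1 (2.99) and MTHFD1 (2.99) were lost. Tricarboxylic acid cycle and glutamine genes were at 20 and 10 of 37, with 8 kept, 12 lost and 2 gained. CS, ACLY, IDH2 and IDH3A were kept, and MDH1 (3.38), GLUD1 (3.12), DLAT, PDK1 and SDHA were lost. SLC1A5, the main glutamine transporter, had its summits at nearly the same base, 177 and 178 bp downstream of an internal start, with folds of 3.12 and 4.15.

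Nucleolar and ribosome assembly genes had the highest control share among the 16 lists, 30 of 40 (75%, 58.8 to 87.3), and 20 of 40 in starvation, with 19 kept, 11 lost and 1 gained, and 28 in control at equal length. RRP1 (4.55 and 3.79, with summits 1730 and 1723 bp into the gene), GNL3, NCL, which encodes nucleolin, and NPM1, which encodes nucleophosmin, were kept, and NOP2 (3.64), NOP56 (3.51) and NOP58 (3.12) were lost. RNA polymerase II, Mediator and TFIID genes were at 31 and 15 of 56, with 12 kept, 19 lost and 3 gained. MED18, TAF12 and MED15 were kept, and MED4, MED13, MED25 (3.51 each) and POLR2B (3.25) were lost.

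Genes for writers and readers of H3 lysine 36 methylation were at 18 and 11 of 27, with 7 kept, 11 lost and 4 gained. NSD1, a dimethyltransferase, was kept, with the strongest control summit 1276 bp past an internal start (4.55) and the strongest starvation summit 109 bp upstream of one (4.06). A weaker control peak (3.38), with its summit 156 bp downstream of a start, overlapped that starvation peak. SETD2, the enzyme that adds the last methyl group (3.38, 2361 bp in), NSD2 (2.86) and the reader gene MORF4L1 (3.38) were lost. The DNA methyltransferase genes DNMT3A (2.90) and DNMT3B (2.72), whose products carry PWWP domains, and MSH6 (2.36) were gained. Genes of the p53 response and DNA damage were at 20 and 11 of 32, with 8 kept, 12 lost and 3 gained. SESN2 was kept (4.29, 2865 bp in, and 3.61, 504 bp upstream), XRCC5 and DDB2 (3.12 each) were lost, and CDKN1A (3.16), GADD45B (3.07) and BAX (2.45) were gained. Polycomb and developmental regulators were at 19 and 12 of 40, with EZH2 (3.64) and PCGF6 (4.16) lost and CBX2, CBX8, EN2 and NKX2-5 kept.

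Among the tissue markers, liver genes were at 2 of 16 in control and 5 of 16 in starvation. APOA1 and APOC3, both without a strand in the promoter table, are neighbours that share 1 gained peak (3.43). It lay 390 bp outside 1 end of APOA1, which may be its start or its end. APOC3 had a further starvation peak (2.45) 49 bp from 1 of its ends, and F2 was gained (2.63). The nervous system list was at 2 and 3 of 14, blood at 1 and 2 of 20 and muscle at 4 and 5 of 17, where ACTN2, CKM, MYOG and ACTA1 were kept. Intervals of these small lists are wide and overlap.

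Of 11 genes chosen as background on HDGF (its family, interaction partners and described targets), 0 had a control summit within 1 kb of a start, which allows up to 28.5%. A starvation summit was at 3: HDGF itself (3.07, 946 bp past an internal start), PCBP1 (2.90) and NCL (2.45). Within 2500 bp both lists were at 7. HDGF was kept, with a control summit 1157 bp past an internal start (4.03) and its strongest starvation summit 2084 bp past a start (3.97). HDGFL2 was kept (3.12 and 3.43), HDGFL3 was lost (2.99) and CTBP1 gained (2.72). SMYD1, PSIP1 and HDGFL1 had no peak base within 2500 bp in either list.

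INTS13 had a start pattern of its own and moved the same way. Its peaks covered 1.41% of starts in control and 3.25% in starvation, and of its summits within 3 kb of a start 30.9 and 58.7% were within 500 bp, though the INTS13 antibody also changed between those lists. Of the 1208 starvation-only HDGF peaks within 500 bp of a start, 182 (15.1%, 13.1 to 17.2) overlapped an INTS13 starvation peak and 66 (5.46%, 4.25 to 6.90) an INTS13 control peak. Over all 44358 starvation-only HDGF peaks these shares were 10.6 and 6.96%. Shared HDGF starvation peaks had higher shares, 26.5 and 21.3% of the 328 within 500 bp of a start and 23.2 and 34.2% of all 23780.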

How the data were processed

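ChIP-seq reads of 150 bp (paired-end) were processed with FastQC, Trimmomatic, Bowtie, Picard and MACS2 on build hg38, per the submitters' processing notes. The versions of these tools, the handling of the 2 replicates and any use of inputs are details not given in the sources used here. The peak names hold the value 0.05. Each deposited list gives, per peak, a fold enrichment (a ratio over background) and a summit from the authors. The deposited −log10 p and −log10 q values are the authors' too, and all of them were used only to rank, filter or describe peaks within a list. With no depth per library in the lists, precision rests on the number of peaks. The authors' read totals and the inputs were not used here.

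From these lists, unique intervals on chromosomes 1 to 22, X and Y were kept (23 and 17 peaks on other sequences were left out) and compared with Python 3.11.15, pandas 2.3.3, numpy 2.4.6 and scipy 1.17.1. Intervals sharing 1 base overlapped. Genes and promoters came from RefSeq GRCh38.p14: 15842 of 20037 protein-coding genes (79.1%) had a strand there, and for the others either end counted as a start. The 16 gene lists matched all their members. Members and lists were chosen with earlier results of these data known. Named genes were the 8 strongest per class (kept with overlapping peaks, and lost or gained with no peak of the other list within 2500 bp), up to 4 per class and gene list by −log10 p, the HDGF background genes and the 5 strongest intervals per class. Genes given for the 2500 bp window, the sequences and the widest intervals were chosen after their values were seen. The overlap code was tested on simulated data. No test between conditions was run.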

Additional observations from a re-analysis of the deposited data

How the results depend on the processing

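No paired analysis was possible because each group has a single peak list, and leaving out a replicate was not possible for the same reason. The shared share of control peaks was 22.5, 19.2 and 35.9% with a −log10 q of at least 3, 5 and 10, 26.3% in lists of equal length, 13.1% without chromosomes 1, 13, 22 and X, 11% for summits within 250 bp, 5.63% with at least 50% of both peaks shared and 18.2% with peaks within 1 kb merged. In the same order the shared share of starvation peaks was 31.1, 37.5, 50.4, 29.3, 20.5, 17.3, 8.82 and 33.2%. The counts of kept, lost and gained genes (1263, 1392 and 1986) were 428, 627 and 1518 with a window of 500 bp, 3226, 3220 and 1780 with 2500 bp, and 98, 273 and 306 with a −log10 q of at least 5. With either end of all genes 2029 were kept, and in lists of equal length 854 were lost. Summits at a start were 2.49% in control and 4.01% in starvation with a −log10 q of at least 10, and 10.4 and 13.6% with a window of 2500 bp. The other alternatives were chosen after seeing the data. Summits within 500 bp, of those within 3 kb, were 6.52% in control with a −log10 q of at least 3, 6.40 and 18.9% in control and starvation with at least 5, 3.23 and 15% with at least 10 (2 of 62 and 6 of 40 summits), 6.17% in control without chromosomes 1, 13, 22 and X, 5.17 and 17.4% with 1 start per gene, and 10.0 and 11.7% for shared peaks alone, where the intervals (8.93 to 11.2 and 10.5 to 13) overlap. Genes with a peak within 2500 bp (6696 and 5140) were 3769 and 3388 with a −log10 q of at least 3 and 1266 and 861 with at least 5. In lists of equal length they were 4973 and 5140, so the order of the lists over all genes turned there. The starvation share of summits within 500 bp was the higher one in each alternative run.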
